A study of Mus musculus with 32 samples.

Results

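Stc1 encodes stanniocalcin 1, a secreted glycoprotein hormone, and is 1 of the 24454 gene IDs counted in 32 laser-captured regions of mouse mammary gland, mammary tumour and lung metastasis. It was selected on its measured levels: in an earlier analysis of the same table it stood among the genes of smallest p between adenoma and hyperplasia. Its levels by stage are therefore a description, with no test. Stanniocalcin was first described in bony fish, where it lowers the uptake of calcium. In mammals it acts close to the cells that secrete it, on calcium and phosphate transport and, in human and mouse work, as an inhibitor of the pappalysins, proteases that free insulin-like growth factors (IGF) from their binding proteins. In human tumour cells STC1 is known as a gene induced by low oxygen.

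All regions came from female mice of 1 genotype, MMTV-PyMT; R26-CBW; K8-CreERT2, so the normal gland also carries the tumour transgene. MMTV-PyMT places a viral oncogene under a mammary tumour virus promoter, R26-CBW is a multicolour reporter, and K8-CreERT2 is a tamoxifen-dependent recombinase in cells expressing keratin 8. Tamoxifen (5 mg) was given at 5 weeks of age, and when the tumours had grown to the size limit, single-colour patches were cut from sections of 7 µm. There were 3 regions of normal gland, 5 of hyperplasia, 8 of adenoma, 9 of carcinoma and 7 of lung metastasis. The labels place hyperplasia regions in the tumour core (3), at its border (1) and outside it (1), adenoma regions in the core (3), border (3) and outside (2), and carcinoma regions in the core (6) and border (3). Metastases lay at the border (4) or in the centre (3) of the lung, normal 18 is placed in the tumour core, and normal 28 and 30 are pools. The series gives n = 3 animals without saying which region came from which, so regions share animals. Every p-value over regions given here treats them as independent. It may be too small or, for places within an animal, too large.

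Stc1 (gene ID 20855) lies on chromosome 14 of the mouse genome build GRCm38 (mm10), at chr14:69029289-69041401 on the plus strand in the RefSeq annotation. GENCODE gives it 4 exons with 741 coding bases. The antisense noncoding gene Gm41192 overlaps the 5′ end of the gene by 415 bases, part of the first exon included, and without a stated strand setting the reads of the pair cannot be told apart there. Total counts ran from 2688611 to 19585351 per library. Levels are CPM (counts scaled to 1e+06 per library) with TMM library sizes, and intervals are exact 95% Poisson limits that cover counting error only, since the amplified reads carry no molecular identifiers. Luminal epithelial markers were present in every stage, with 10 of 10 genes counted in each. The summed level of 10 lung epithelial markers was 437 to 4651 CPM in metastases, against at most 200 CPM in any region of the primary stages, and its part in the metastasis levels was not tested.

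Stc1 was present at very different levels from region to region, and a few regions carried most of it. It had a count in 25 of the 32 libraries, with a median of 1.39 CPM and a mean of 25.1 CPM, and 62.6% of the summed CPM came from hyperplasia 22. In normal gland it stood at 9.49 CPM in normal 18, 0 in normal 28 and 16.0 CPM in normal 30. In hyperplasia it stood at 502 CPM (487 to 517) in hyperplasia 22, 75.0 CPM in hyperplasia 33, 6.13 CPM in hyperplasia 21, 4.15 CPM in hyperplasia 44 and 0 in hyperplasia 46. The first of these is far above every other library, on 4411 counts. The 8 adenoma libraries were all low, from 0 to 1.62 CPM with a median of 0.128 CPM, and their counts summed to 47. The 9 carcinoma libraries ran from 0 to 80.8 CPM with a median of 1.36 CPM, and 2 of them, carcinoma 06 and carcinoma 38 with 56.5 CPM, stood above the rest, which were at or below 4.87 CPM. Carcinoma thus held both regions with no count and the highest level outside hyperplasia 22. The 7 metastases each had a count and ran from 0.270 to 13.5 CPM with a median of 1.73 CPM. As in any bulk measurement, fewer cells of a type and less RNA per cell cannot be told apart.

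The 3 regions of normal gland averaged 8.50 ± 8.05 CPM (SD over libraries, here and below) and the 5 of hyperplasia 117 ± 217 CPM. Adenoma regions averaged 0.538 ± 0.695 CPM (n = 8), carcinoma regions 16.5 ± 30.3 CPM (n = 9) and metastases 5.21 ± 5.64 CPM (n = 7). Single libraries set several of these means. Without hyperplasia 22 the hyperplasia mean was 21.3 CPM, without carcinoma 06 the carcinoma mean was 8.41 CPM, and without normal 30 the normal mean was 4.74 CPM. The stage values also mix places in unlike shares, with 3 of 5 regions from the core in hyperplasia, 3 of 8 in adenoma and 6 of 9 in carcinoma. Core regions alone averaged 194 ± 269, 1.35 ± 0.320 and 24.7 ± 35.0 CPM in these stages. Border and outside regions averaged 2.08, 0.0510 and 0.0579 CPM. On the scale of log2(CPM + 1) the order from high to low was hyperplasia (4.08), normal gland (2.49), carcinoma (2.15), metastasis (2.02) and adenoma (0.50). The ranges of all neighbours in this order overlapped. The gap of 1.52 between metastasis and adenoma exceeded the pooled SD of 1.11, and the other 3 gaps were smaller than theirs. The ratio of means was 0.00458 for adenoma over hyperplasia, and the log2 ratio of the medians was -2.66. The hyperplasia mean was 13.8-fold that of normal gland while the log2 ratio of the medians was -0.56, and the carcinoma mean was 1.94-fold that of normal gland while the log2 ratio of the medians was -2.15. The direction against normal gland thus turned with the summary used. Of 19907 genes, 6 (0.0301%) had every hyperplasia library above every adenoma library, and Stc1 was not among them, since hyperplasia 46 was at 0.

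**Figure D1:**
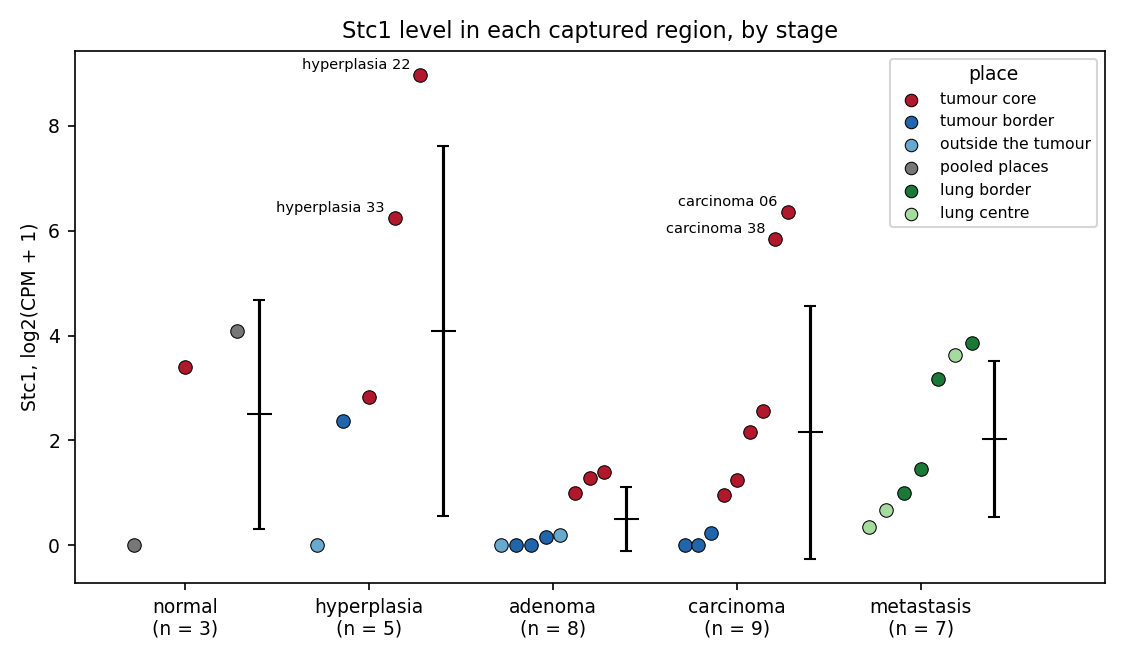
Stc1 level in each captured region by tumour stage, on the y axis as log2(CPM + 1). Points are libraries coloured by place in the tumour or lung, and the line with caps is the mean ± SD of the stage. Hyperplasia 22 lies highest, adenoma has the lowest mean, and red points (core) sit above blue points (border or outside) within hyperplasia, adenoma and carcinoma.

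Within each of the 3 primary tumour stages, every region from the tumour core had more Stc1 than every region from the border or from outside the tumour. The 12 core libraries all had a count and ran from 0.942 to 502 CPM with a median of 4.18 CPM. The 10 border and outside libraries ran from 0 to 4.15 CPM, 4 of them had a count, and their median was 0. The mean was 61.3 ± 142 CPM in the core (SD, n = 12), against 0.458 ± 1.30 CPM at the border and outside (n = 10). The libraries behind this separation also enter the stage levels by which Stc1 was picked, so it is given as a description.

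In hyperplasia the core regions had 502, 75.0 and 6.13 CPM, against 4.15 CPM at the border and 0 outside the tumour. The lowest core value (4.77 to 7.76) and the border value (2.87 to 5.80) had overlapping counting intervals. The pooled core level was 47-fold the border level (33.6 to 67.9), and against the outside region, with a floor of 3 counts over that group, it was at least 790-fold higher. Hyperplasia 22 held 4411 of the 4838 core counts. Without it the mean core level was 40.6 CPM, the pooled level was 6.42-fold the border level (4.52 to 9.39) and at least 108-fold higher than outside. Without hyperplasia 21 these folds were 84.7 (60.5 to 122) and at least 1424.

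In adenoma the core regions had 1.62, 1.43 and 0.997 CPM, against 0.111, 0 and 0 CPM at the border and 0.145 and 0 CPM outside. These rest on few reads: 27, 5 and 11 counts in the core, against 1 count in all at the border and 3 outside. By the exact Poisson limit the border regions adenoma 47 and adenoma 48 allowed 0.937 and 0.616 CPM. Both limits overlap the counting intervals of the core regions adenoma 24 (0.497 to 1.78) and adenoma 51 (0.463 to 3.33). The pooled core level was 30.9-fold the border level, with a counting interval from 5.26 to 1249, and 13.6-fold the outside level (4.35 to 68.5).

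In carcinoma the core regions had 80.8, 56.5, 4.87, 3.48, 1.36 and 0.942 CPM, against 0.174, 0 and 0 CPM at the border. The lowest core library had 16 counts (0.539 to 1.53 CPM), and the highest border library had 4 counts (0.0473 to 0.445 CPM). The zero counts at the border allowed, as 3 counts, up to 0.636 CPM in carcinoma 39 and 0.253 CPM in carcinoma 55. By the exact Poisson limit they allowed 0.782 and 0.311 CPM, and the first of these overlaps the interval of the lowest core library. The pooled core level was 188-fold the border level (73.4 to 692), and the mean core level was 24.7 ± 35.0 CPM (SD, n = 6), or 13.4 CPM without carcinoma 06. The pooled fold was 91.9 without carcinoma 06 (35.7 to 339), and without carcinoma 08, which held the 4 border counts, it was at least 105-fold against the floor.

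**Figure D2:**
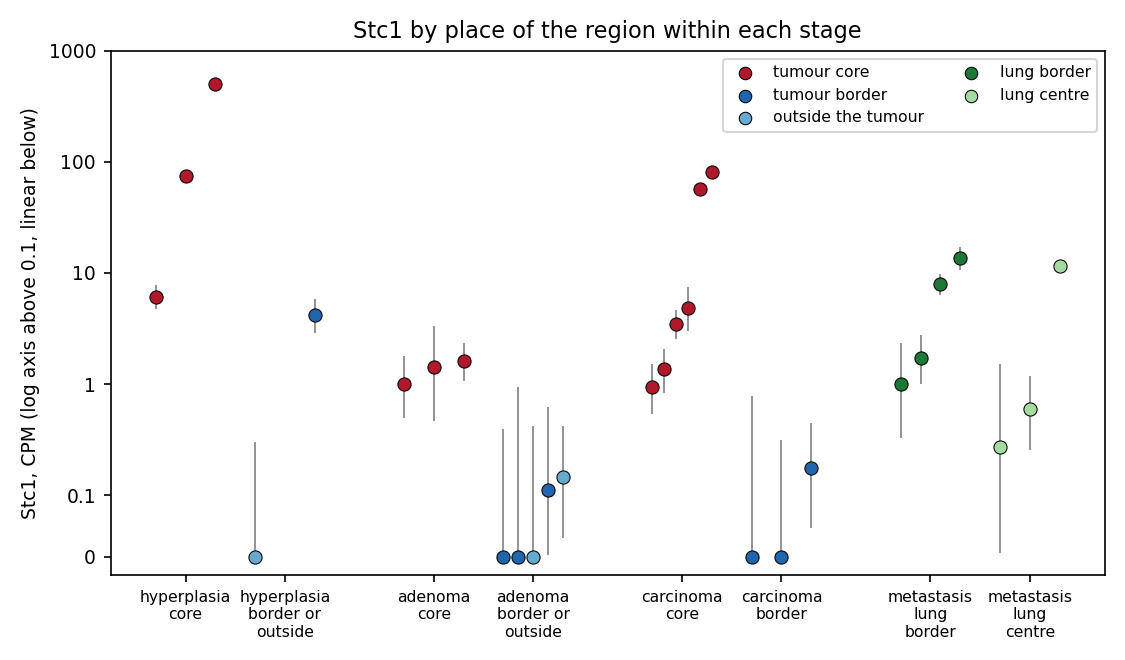
Stc1 level in CPM by place within each stage, on an axis that is logarithmic above 0.1 and linear below. Points are libraries, in order of level within a group, and bars are 95% Poisson intervals. The 3 core groups each lie above the border and outside regions of their stage, while lung border and lung centre overlap.

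Across the 22676 genes of the position fit, 933 (4.11%) had every core library above every border and outside library in hyperplasia. The same held for 266 genes (1.17%) in adenoma and for 115 (0.507%) in carcinoma. Stc1 was the 1 gene (0.00441%) for which it held in all 3 stages, and 0 genes showed the opposite in all 3. The number of genes separated in all 3 stages was 2 without hyperplasia 33, without hyperplasia 44, without carcinoma 08, without carcinoma 53 or without carcinoma 55. The core lay above the other places in 1 or more stages for 1292 genes (5.70%) and below them for 1868 (8.24%). Above them lay 1 of 17 IGF-binding axis genes, 1 of 21 calcium and phosphate genes, 3 of 30 hypoxia-induced genes and 2 of 20 immediate early genes, and below them 1, 6, 6 and 0. In 2 or more stages the core lay above for 21 of 22676 genes (0.0926%) and 0 of these 88.

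In the edgeR quasi-likelihood test, which weighs the spread between libraries of all groups, no single position contrast passed for Stc1 after Benjamini-Hochberg adjustment. Its p-values treat regions that share animals as independent. In carcinoma the log2 fold of core over border was 8.12 ± 2.12 (SE), with an unadjusted p of 0.000327 and an adjusted p of 0.6. In adenoma it was 4.62 ± 2.05, with an adjusted p of 0.514. Outside minus core over hyperplasia and adenoma, the log2 fold was -8.87 ± 2.61, with an adjusted p of 0.768. As the hyperplasia region outside was at 0 and the border groups had 4 counts or fewer, these fitted folds depend on the prior count and are no bounds. The test called 0 of 22676 genes (0%) in each of these contrasts, where the unadjusted p was under 0.05 for 1276, 2143 and 1223 genes, and the DESeq2 Wald test called 331 (1.46%), 1186 (5.23%) and 1888 (8.33%). DESeq2 gave Stc1 an adjusted p of 8.27e-05 in carcinoma, 0.204 in adenoma and 6.04e-05 for outside minus core. The adenoma and outside-minus-core contrasts use libraries by which Stc1 was picked, so no p-value there, by edgeR or DESeq2, is independent support. The core-over-border fold in carcinoma minus that in adenoma was 3.49 ± 3.18 on the log2 scale and did not pass (edgeR adjusted p = 0.902).

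A contrast of core minus the other places, averaged over the 3 primary stages, was added after the Stc1 values were seen, so its call for Stc1 is no independent support, and regions share animals here too. The log2 fold of Stc1 was 7.36 ± 1.37, where the median over all genes was 0.52. By edgeR 3 of 22676 genes (0.0132%) passed, all higher in the core: Stc1 and the immediate early genes Fos and Dusp1. DESeq2 called 1587 genes (7.00%), 1510 of them higher in the core. The calls rest on single libraries: by edgeR 0 genes passed without hyperplasia 22, without hyperplasia 44, without hyperplasia 46 or without adenoma 51.

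In the lung the levels at the 2 places overlapped. Lung border regions had 13.5, 7.95, 1.73 and 1.0 CPM, against 11.4, 0.594 and 0.270 CPM in the lung centre, and metastasis 02 in the centre lay above 3 of the 4 border regions. The mean was 6.05 ± 5.87 CPM at the lung border (SD, n = 4) and 4.10 ± 6.36 CPM in the lung centre (n = 3). Without metastasis 56 the border mean was 3.56 CPM, and without metastasis 02 the centre mean was 0.432 CPM. On pooled counts the border level was 0.939-fold the centre level (0.768 to 1.15), on the other side of 1 from the ratio of the means. It was 11.2-fold without metastasis 02 (5.76 to 24.8) and 0.61-fold without metastasis 27 (0.498 to 0.746). The edgeR log2 fold of border over centre was 0.53 ± 1.47 with an adjusted p of 0.989 over regions that share animals, and it was -0.22 without metastasis 56 and 3.70 without metastasis 02. By edgeR 0 of 22676 genes (0%) passed in the lung, 1975 had an unadjusted p under 0.05, and DESeq2 called 803 (3.54%). Here 366 of 22676 genes (1.61%) had every lung border library above every lung centre library. In normal gland, the region placed in the tumour core, normal 18, lay between the 2 pools.

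Marker sums and depth were set beside the Stc1 difference by place, and their part in it was not tested. The 13 fibroblast markers summed to 423 CPM in the core (40.8 to 1825), against 888 CPM at the border and outside (119 to 3620), with 13 of 13 genes counted in both. The 10 basal and myoepithelial markers summed to 72.5 CPM (2.57 to 145), against 162 CPM (28.1 to 399). Both sums had a lower mean in the core, with overlapping ranges. The 12 endothelial markers summed to 72.8 CPM (15.4 to 148), against 55.4 CPM (4.03 to 95.7), and the 11 macrophage markers to 427 CPM (101 to 1160), against 393 CPM (84.9 to 990). The 10 adipocyte markers summed to 32.3 CPM (0 to 94.8) in the core, against 32.6 CPM (2.54 to 78.5) at the border and outside, where Cfd, Retn and Cidec were at 0. The ranges of these 3 sums overlapped as well. The 10 luminal markers summed to 3255 CPM (1663 to 4888), against 3172 CPM (2025 to 4475). Core libraries had 14934 ± 2345 detected genes (SD, n = 12), against 14320 ± 1442 at the border and outside (n = 10).

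The 4 libraries of highest Stc1 differed in their markers. Hyperplasia 22, with 10258 detected genes, ranked 4 of 32 for fibroblast markers (1825 CPM) with the fibroblast genes Pdgfra, Pdgfrb, Dpt and Fbln1 at 0, and 2 of 32 for macrophage markers (1160 CPM). Carcinoma 06 and carcinoma 38 ranked 31 and 30 of 32 for fibroblast markers, with 49.8 and 108 CPM, and hyperplasia 33 ranked 23. Luminal markers ranked 7, 30, 9 and 26 in hyperplasia 22, hyperplasia 33, carcinoma 06 and carcinoma 38. Over the 32 libraries the correlation of Stc1 with the number of detected genes was r = 0.01, and with the log of the total count r = -0.18.

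The reporter colour of a patch, which played no part in choosing the gene, left overlapping ranges of Stc1. Its mean was 37.9 ± 118 CPM in 18 red patches, 2.19 ± 4.13 CPM in 7 yellow patches and 17.7 ± 35.4 CPM in 5 green patches. Each mean was set by 1 library: it was 10.6 CPM in red patches without hyperplasia 22, 0.653 CPM in yellow patches without metastasis 02 and 1.93 CPM in green patches without carcinoma 06. With stage in the model, red and yellow differed from green by -0.67 and -1.16 on the log2 scale, with an edgeR adjusted p of 0.999 over 22447 genes and regions that share animals. For colour 0 genes passed by edgeR (0%), 2464 had an unadjusted p under 0.05, and the DESeq2 likelihood ratio test called 0.

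Stc2, the paralogue of Stc1 on chromosome 11 (gene ID 20856) and also an inhibitor of the pappalysins, was not higher in every core region of any stage. It had a count in 22 of 32 libraries and a mean of 4.75 CPM, with a mean of 9.16 CPM over normal regions, 5.83 CPM over hyperplasia, 1.22 CPM over adenoma, 7.54 CPM over carcinoma and 2.52 CPM over metastases. In the primary stages it averaged 5.66 ± 7.64 CPM in the core (SD, n = 12), against 3.88 ± 5.26 CPM at the border and outside (n = 10), with overlapping ranges in 3 of 3 stages. It was at 0 in hyperplasia 22 and carcinoma 38, where Stc1 was high. The edgeR log2 fold of Stc2 was 0.17 ± 2.28 for carcinoma core over border, -2.19 ± 2.73 for adenoma core over border and 0.77 ± 2.27 for outside minus core, with adjusted p of 1, 0.827 and 1. Both paralogues had their lowest stage mean in adenoma.

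The IGF-binding axis holds the proteases that stanniocalcins inhibit. Pappa, a protease that cleaves IGF-binding proteins, was at 0 in hyperplasia 22 and had its highest level, 69.9 CPM, in carcinoma 39 at a tumour border. In the primary stages Pappa averaged 7.50 CPM in the core, against 15.3 CPM at the border and outside, with overlapping ranges. Pappa2, its paralogue, reached 995 CPM in hyperplasia 22, against at most 95.4 CPM in any other library, and its r with Stc1 was 0.53 over 32 libraries and 0.25 without hyperplasia 22 and carcinoma 06. Igfbp5, a binding protein that the pappalysins cleave, ran from 269 to 10963 CPM, with its highest level in hyperplasia 22 and its lowest in carcinoma 37. Igfbp7, which binds IGF weakly, also peaked in hyperplasia 22, at 553 CPM.

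On the receptor side, Igf1r, the receptor of IGF, had an r of 0.52 with Stc1, or 0.44 without those 2 libraries. Igf1r averaged 29.6 CPM in the core (5.55 to 125), against 14.5 CPM at the border and outside (0.221 to 37.6). Irs1, the adaptor that carries the receptor's signal, had an r of 0.42, or 0.17 without them, and reached 255 CPM in hyperplasia 22. By edgeR, over regions that share animals, 0 of 19907 genes (0%) passed for hyperplasia over normal gland, for adenoma over hyperplasia and for carcinoma over adenoma, 3 (0.0151%) for metastasis over carcinoma and 1 (0.00502%) for carcinoma over normal gland. None of the 17 axis genes was among them, nor did DESeq2 call any of the 17 in these 5 contrasts, in which it called 509 (2.56%), 630 (3.16%), 285 (1.43%), 197 (0.990%) and 191 (0.959%) genes and 2472, 2947, 2502, 2164 and 1626 had an unadjusted edgeR p under 0.05. The median log2 fold of the 17 was -1.51 for adenoma over hyperplasia, where the median of all genes was 0.06, and 0.71 for carcinoma over adenoma, where it was 0.02. By place the median was 0.02 for carcinoma core over border (all genes 0.15), -0.68 for adenoma core over border (0), -2.04 for outside minus core (-0.69), 0.94 for core over the other places (0.52) and 1.28 for lung border over lung centre (0.30). The median r of the 17 with Stc1 was 0.09, where the median of all genes compared was -0.03.

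The 22 genes of calcium and phosphate handling, processes on which stanniocalcin acts in mammals, lay on both sides of 0 in their relation to Stc1. Of the 19 that passed the filter on low counts 10 had an r above 0, the median r was 0.03, and 0 passed by edgeR in a stage contrast. DESeq2 called Trpv6, a calcium channel, for hyperplasia over normal gland and adenoma over hyperplasia, and Pthlh, the parathyroid hormone-like ligand, for carcinoma over adenoma and carcinoma over normal gland. Atp2a2, the calcium pump of the endoplasmic reticulum, had the r farthest from 0, at -0.40. Its correlation on ranks (Spearman's rho) was farther from 0, at -0.585. The genes of lowest r among all genes compared, named further below, had a rho of -0.588 (Myo1h), -0.565 (Kctd10) and -0.549 (Ndufb7). Atp2a2 averaged 91.5 CPM in the core (33.4 to 204), against 128 CPM at the border and outside (91.3 to 241). Its log2 fold for core over the other places was -0.40 ± 0.42. Atp2b1, the calcium pump of the cell surface, had an r of 0.03, and Atp2c1, the calcium pump of the Golgi, an r of -0.06. Cyp24a1, which breaks down vitamin D, had an r of 0.33, and the vitamin D receptor Vdr an r of -0.22. The median log2 fold of the list for carcinoma core over border was 0.27, against 0.15 over all genes, and for adenoma core over border it was -0.42, against 0. For core over the other places it was -0.25, against 0.52.

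Hypoxia-induced genes, the group in which human STC1 is usually placed, were likewise on both sides of 0. Of the 30 genes, 12 had an r above 0 with Stc1 and the median was -0.03. P4ha1, a collagen prolyl hydroxylase, had the highest r, 0.46, with 106 CPM in hyperplasia 22, and 0.23 without hyperplasia 22 and carcinoma 06. Egln1 and Egln3, oxygen sensors that mark the hypoxia-inducible factor for breakdown, had r of -0.37 and -0.34. The glycolytic genes Ldha and Aldoc had r of -0.02 and -0.14, and the lipid droplet gene Plin2 had -0.19. The summed level of the list was 2305 ± 819 CPM in the core (SD, n = 12), against 2361 ± 789 CPM at the border and outside (n = 10), with overlapping ranges. This sum mostly follows its genes of highest level. Ldha and Aldoc held 2364 and 778 of 3812 CPM in carcinoma 08, and 322 and 277 of 1262 CPM in carcinoma 55. The median log2 fold was 0.38 for carcinoma core over border and 0.35 for adenoma core over border, against 0.15 and 0 over all genes, and 0 of the 30 passed by edgeR in either. DESeq2 called Angptl4 and Lox in adenoma, where it called 5.23% of all genes, and 0 of the 30 in carcinoma, where it called 1.46%. For core over the other places the median was 0.13, against 0.52 over all genes. Of the 88 genes of the IGF, calcium, hypoxia and immediate early lists, DESeq2 called 13 for outside minus core (14.8%, all genes 8.33%). It called 11 of them for core over the other places (12.5%, all genes 7.00%), and neither count is split by list here. By stage edgeR called 0 of the 30, while DESeq2 called Lox for adenoma over hyperplasia and Egln3 for carcinoma over normal gland. By stage the summed level was lowest in normal gland, at 1507 ± 137 CPM (n = 3), where 2 of 3 libraries had more Stc1 than any adenoma library.

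Immediate early genes, which are switched on within minutes by growth factors or by handling of tissue, had a median r of 0.20 with Stc1, with 16 of 20 above 0, where the median over all genes compared was -0.03. These r include hyperplasia 22, the library of highest Stc1, and are not given here without it. The summed level of the list was also highest there, at 7332 CPM, against at most 2215 CPM in any other library. It was 456 CPM in carcinoma 06, which ranked 29 of 32. The sum averaged 1631 ± 1907 CPM in the core (SD, n = 12), against 823 ± 348 CPM at the border and outside (n = 10), and the ranges overlapped. Fos, a transcription factor of this class, had 2183 CPM in hyperplasia 22 and, in the core, a range of 4.62 to 2183 CPM, against 1.15 to 114 CPM at the border and outside. Its log2 fold in the contrast of core over the other places was 3.95 ± 0.75, with an edgeR adjusted p of 0.018 over regions that share animals. Dusp1, a phosphatase that ends kinase signals, ran from 3.46 to 307 CPM in the core, against 0 to 74.3 CPM, and its log2 fold was 5.65 ± 1.03 with an adjusted p of 0.018. These were the 2 of 20 genes that passed in that contrast, and neither did without hyperplasia 22. In carcinoma alone the adjusted p was 0.781 for both genes. The median log2 fold of the list was 0.50 for carcinoma core over border and 0.09 for adenoma core over border, against 0.15 and 0 over all genes, and 0.91 for core over the other places, against 0.52. Ier2, Jund, Zfp36 and Fosb, further members, had r of 0.15, 0.11, 0.34 and 0.33 with Stc1. Each had its highest level in hyperplasia 22, at 436, 537, 695 and 359 CPM.

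**Figure D3:**
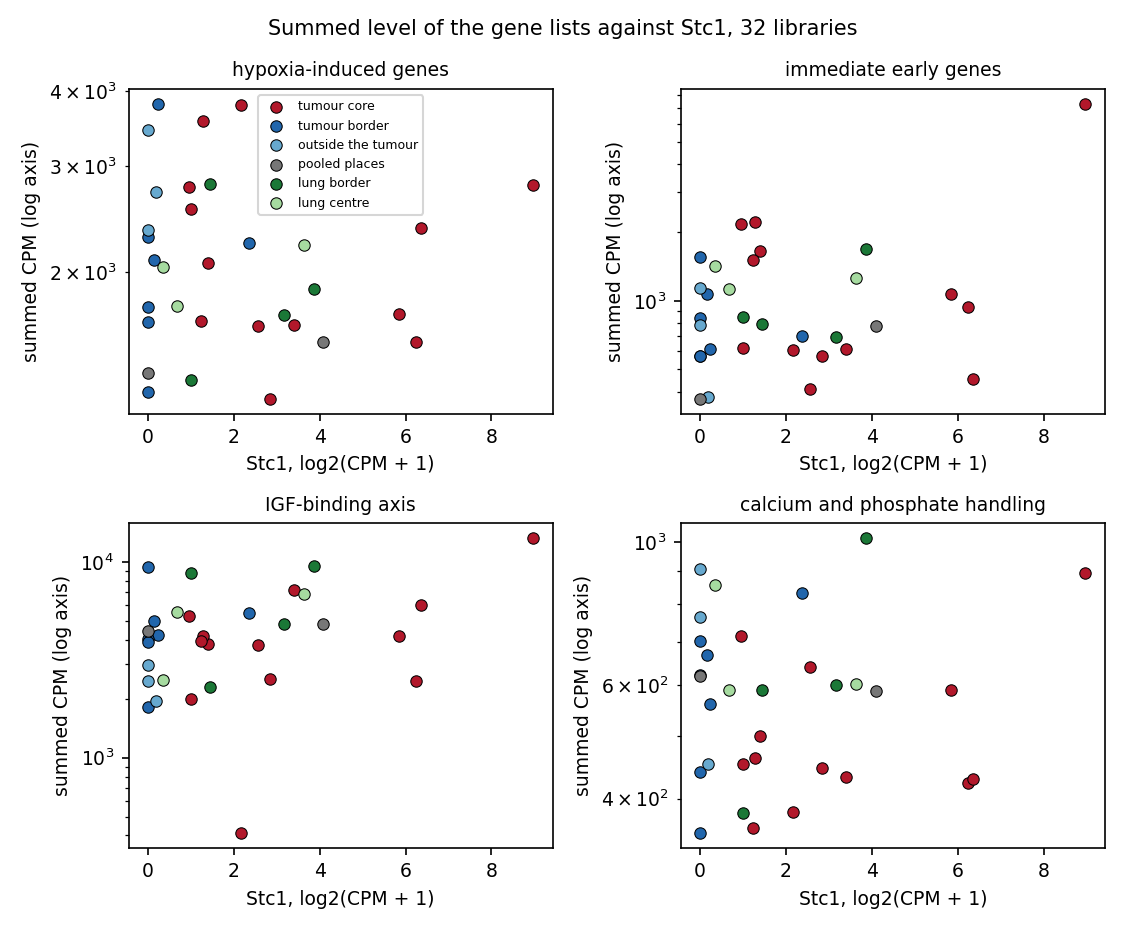
Summed CPM of 4 gene lists (y axes, logarithmic) against Stc1 as log2(CPM + 1) in 32 libraries, coloured by place. Hyperplasia 22, at the far right, has the highest sums for the immediate early genes and the IGF-binding axis, and ranks 6 of 32 for the hypoxia-induced genes and 3 of 32 for calcium and phosphate handling.

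The genes whose level ran most like Stc1 were taken as the 10 of highest Pearson r on log2(CPM + 1) over the 32 libraries, among 12418 genes with a mean of at least 5 CPM and a count in at least 8 libraries. They were Olfml2b, an extracellular matrix protein (r = 0.68), Gdap1, a mitochondrial outer membrane protein (0.67), Mks1, a protein of the ciliary base (0.67), the odorant receptor gene Olfr1318 (0.66), the solute carrier Slc35d3 (0.66), Spin4 (0.65), the Polycomb protein Phc3 (0.65), the synaptic scaffold Dlgap1 (0.64), the splicing factor Scaf11 (0.64) and Ripor1 (0.63). In all, 16 genes had an r above 0.6, and the median over all 12418 was -0.03.

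This likeness rests largely on hyperplasia 22. Of the 10 genes, 7 had their highest level of all 32 libraries there, with 193 CPM for Olfml2b, 135 for Mks1, 538 for Olfr1318, 361 for Slc35d3, 243 for Spin4, 607 for Phc3 and 345 for Ripor1. Gdap1 peaked in metastasis 56 (97.5 CPM), Dlgap1 in metastasis 27 (64.6 CPM) and Scaf11 in hyperplasia 33 (167 CPM). Olfml2b, Mks1 and Olfr1318 reached the required mean of 5 CPM only through hyperplasia 22, so that library also set their place on the list. Gdap1 reached it only through metastasis 56. Without hyperplasia 22 and carcinoma 06, the libraries farthest from the median of Stc1, the r of the 10 genes lay between 0.39 for Slc35d3 and 0.62 for Scaf11. Ranked by Spearman's rho, 2 of the 10 stayed among the top 10, and 4 did so when the stage means were taken out first. Olfr1318 had a count in 8 libraries, with a Spearman's rho of 0.15. The correlations run over the same libraries and share their depth, and over sparse counts they are a description.

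At the other end stood Kctd10 (r = -0.75), Myo1h (-0.74) and the respiratory chain subunit Ndufb7 (-0.70). Kctd10 and Myo1h overlap on chromosome 5, and their values lay close together in most libraries, so they are not separate signals. Both were at 0 in hyperplasia 22 and at 182 CPM in adenoma 36, where Stc1 was at 0. Without hyperplasia 22 and carcinoma 06 the r was -0.60 for Kctd10, -0.57 for Myo1h and -0.45 for Ndufb7.

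**Figure D4:**
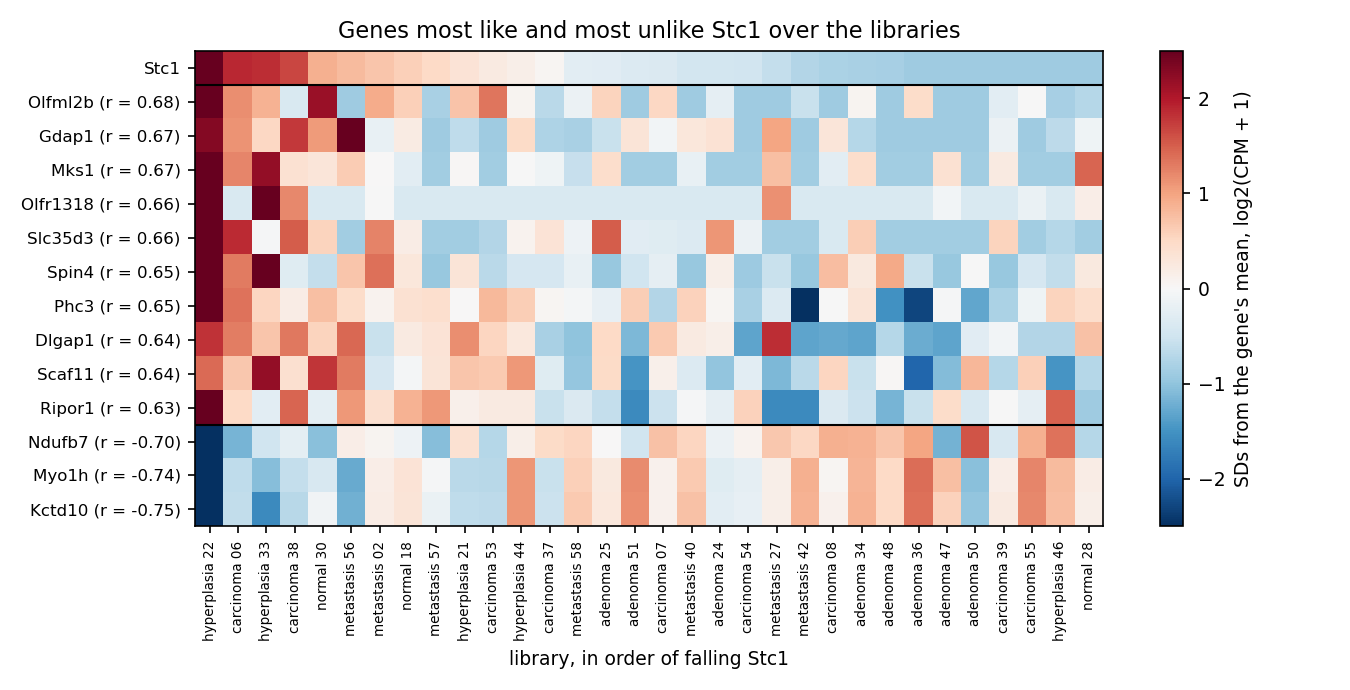
Levels of Stc1, the 10 genes most like it and the 3 most unlike it in the 32 libraries, ordered from high to low Stc1. Colour gives the number of SDs from the gene's own mean of log2(CPM + 1). Hyperplasia 22, the leftmost column, is dark red for most of the 10 genes and dark blue for the 3 below the lower line.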

How the data were processed

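Polyadenylated RNA of 32 laser-captured regions was amplified by a Smart-seq2 chemistry without molecular identifiers, per the labels' protocols. The deposited table holds raw read counts for 24454 gene IDs in 32 columns, matched by title. Reads were aligned with STAR to mm10, per the submitters' processing notes. Which program counted the reads, and with what annotation, strand setting and rule for multiple alignments, was not given in the sources used here. RefSeq annotation of GRCm38.p6 gave symbols for 24374 IDs and none for 80.

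Counts were filtered with filterByExpr (19907 genes by stage, 22676 by stage and position, 22447 by colour), scaled by TMM and fitted with edgeR 4.0.16 (quasi-likelihood, all libraries, 1 coefficient for each stage or each place within a stage, and for colour the 30 single-colour libraries with stage as covariate) in R 4.3.3 with limma 3.58.1. The threshold was a Benjamini-Hochberg adjusted p of 0.05 (two-sided), and DESeq2 1.42.0 was the alternative. The stage and position tests were tested on simulated data. SE is the log2 fold divided by the root of the F statistic. Refits that leave out 1 library kept the genes and the dispersion trend of the fit to all libraries. Stc1, Stc2 and the gene lists were chosen with earlier results of these data known. The genes named beside them were the 10 of highest and the 3 of lowest r with Stc1 and, of each list, those that passed or else the 3 of highest mean level and the 3 of largest absolute r. Other genes were named after their values were seen. Other scalings, filters, tools, measures of likeness and sets of libraries were tried. Replicates are regions, which share animals, so p-values measure the spread between regions.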

Additional observations from a re-analysis of the deposited data

Results flagged for a closer look

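Of 34 groups of 4 to 10 libraries examined for a value far from the rest of its group (Dixon's 95% criterion), 12 held one. Chance meets this criterion in about 1 in 20 independent groups of normally distributed values. CPM are skewed and the groups share libraries, so that rate does not hold here and the count cannot be set against it. For Stc1 these were hyperplasia 22 with 502 CPM among hyperplasia libraries, the nearest being 75.0 CPM, and hyperplasia 44 with 4.15 CPM among tumour border libraries, the nearest being 0.174 CPM. By colour, carcinoma 06 with 80.8 CPM stood apart among green patches (nearest 6.13 CPM) and metastasis 02 with 11.4 CPM among yellow patches (nearest 1.62 CPM). For Stc2, adenoma 36 had 6.46 CPM among adenoma libraries (nearest 1.92 CPM), and carcinoma 39 had 15.9 CPM among tumour border libraries (nearest 6.46 CPM). Metastasis 58 had 10.9 CPM of Stc2, apart both among metastases (nearest 2.23 CPM) and at the lung border (nearest 1.64 CPM).

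The summed level of the IGF-binding axis stood apart in hyperplasia 22 at 13231 CPM (nearest 5493 CPM in hyperplasia), in adenoma 36 at 9355 CPM (nearest 4964 CPM in adenoma) and, as a low value, in carcinoma 37 at 411 CPM (nearest 3770 CPM in carcinoma). Igfbp5 alone made up 82.9%, 95.7% and 65.4% of these 3 sums. The summed level of the immediate early genes was 7332 CPM in hyperplasia 22, the nearest hyperplasia library having 1135 CPM. Of the 12, hyperplasia 22 held 3, and adenoma 36 and metastasis 58 held 2 each.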

How the results depend on the processing

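Under the other scalings (DESeq2 size factors, total counts, without the gene ID of highest share) the core lay above the other places for Stc1 in 3 of 3 stages. Leaving libraries out cannot end such a separation and says nothing of it. The number of genes so separated was 2 without the 3 libraries under 11000 detected genes (hyperplasia 22, adenoma 51 and metastasis 42), and 1 to 2 when single libraries were left out. The adenoma core mean was 1.88 CPM without the gene ID of highest share. For outside minus core, on libraries by which Stc1 was picked, DESeq2 gave it -9.06. DESeq2 gave Stc1 8.50 for carcinoma core over border, and both were past the threshold. It called 1, 2, 1 and 2 of 86 list genes (1.16%, 2.33%, 1.16% and 2.33%) for hyperplasia over normal, adenoma over hyperplasia, carcinoma over adenoma and carcinoma over normal, against 2.56%, 3.16%, 1.43% and 0.959% of all genes. By place it called, of 88 list genes, 2 in adenoma (2.27%, all genes 5.23%), 2 in the lung (2.27%, 3.54%), 13 for outside minus core (14.8%, 8.33%), 11 for core over the other places (12.5%, 7.00%) and 3 for the difference between carcinoma and adenoma (3.41%, 3.26%), where edgeR called 0, 0, 0, 2 and 0. Without a filter on low counts, edgeR called 1 list gene for outside minus core.

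The added contrast of core over the other places gave 7.20 with detected genes as covariate and 6.67 without the 3 libraries, no longer past the threshold and with 0 list genes in both. Over all genes it called 3 by edgeR, 9 without the filter, 6 on total counts and 0 with the covariate or without the 3 libraries. Leaving out single libraries gave 5.96 to 8.76, with 0 to 2 list genes. The lung contrast ran from -0.22 to 3.70. The median r of the 10 most alike genes was 0.548 without the 3 libraries (0 of the 10 then named), 0.537 as Spearman's rho (2 named) and 0.532 to 0.675 when single libraries were left out (1 to 10 named, with 1 without hyperplasia 22 and 6 without hyperplasia 33). Deviations from stage means named 4, a pseudocount of 0.1 CPM named 6 and a minimum mean of 1 CPM named 6. The causes were not tested. Under the DESeq2 test the median log2 fold of all genes was -0.36 for hyperplasia over normal, against 0 in edgeR, and 0.70 for core over the other places, against 0.52. Of 1325 other values, 1283 kept their direction and side of the threshold or moved by less than the replicate spread.

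No paired analysis was possible because the labels do not say which region came from which animal. Stc1 counts of 0 to 5 in 13 libraries limit what can be told apart at the border, outside and in adenoma.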
